A study of Mus musculus with 12 samples.

Results

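Guanylate-binding proteins (GBPs) and immunity-related GTPases (IRGs) were followed through the RNA-seq of injured mouse brain as a list of 10 genes, Gbp2, Gbp3, Gbp4, Gbp5, Gbp6, Gbp7, Gbp9, Iigp1, Irgm1 and Igtp. Each symbol was matched to its Ensembl identifier, and all 10 were present among 35697 identifiers of the 2018 table and 55637 identifiers of the 2022 table. The list was chosen by gene family with the measured fold changes of both comparisons already known from earlier results of these data, so the values of the 10 genes are a description and carry no test of their own. The mice were adult C57BL/6J males by the methods of the study. The library names of 2018 carry WT, read here as wild type, and those of 2022 do not. There were 3 mice in each of 4 groups. In the batch of 2018, sham mice, which had the same surgery without the blow, were set against mice with traumatic brain injury (TBI) made by controlled cortical impact and taken 7 days later. In the batch of 2022, TBI mice without zileuton were set against TBI mice that had received zileuton, an inhibitor of 5-lipoxygenase, by daily injection. The labels of the control mice of 2022 name only the injury, whereas the study calls its controls vehicle-treated. The source labels of the zileuton mice read 7, 8 and 9 days, although their library names all give 7 days, so drug and day cannot be told apart for 2 of them. Zileuton libraries and their controls were named in the tables by the numbers 2, 3 and 6, which could not be tied to single labels. The 2022 batch held no sham mice, and no group was compared with a group of the other batch.

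GBPs are large GTPases that are induced by interferons, above all interferon-γ, and that coat the membranes of vacuoles and bacteria in infected cells. IRGs belong to the same interferon-induced arm of cell-autonomous defence. Effector IRGs such as the product of Iigp1 load onto and disrupt vacuoles, and regulatory IRGs such as the products of Irgm1 and Igtp hold the effectors inactive on the cell's own membranes and touch autophagy and lipid droplets. In brain, microglia, infiltrating myeloid cells, astrocytes and endothelial cells can all switch these genes on. Interferon-γ signals through its receptor and the kinases Jak1 and Jak2 to gamma-activated sites in target genes, among them Irf1. The factor Irf1 in turn binds interferon-stimulated response elements, which also answer to type I interferon.

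The genes lie mostly in groups. On GRCm38 with GENCODE M21, which is an older build than the GRCm39 named in the submitters' processing notes, Gbp5, Gbp7, Gbp3 and Gbp2 stand in a row on the plus strand of chromosome 3 between 142493978 and 142638008. Gbp9, Gbp4 and Gbp6 lie on the minus strand of chromosome 5 between 105077630 and 105293698. Irgm1 (48861968 to 48871683, minus strand) and Igtp (58199556 to 58207591, plus strand) are on chromosome 11, and Iigp1 lies by itself. All 10 are annotated as protein-coding.

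RefSeq windows before the annotated start were at hand for 6 of the 10 genes (GRCm38.p6), and these are shown because the family is known for its induction by interferon. In the 250 bases upstream of the start, the core of an interferon-stimulated response element, spelled GAAA, any 2 bases and GAAA, was present on either strand in 6 of 6. It was present in 2.98% of 32851 windows of the same length across the genome. Of 10 other GBP and IRG genes with such a window, among 17 listed, 5 had the core. Only this exact spelling within 250 bases of the start was searched, so other forms or places of the element would be missed. TTCNNNGAA, a gamma-activated site, was present in Gbp5, Gbp7 and Igtp, in 4 of the 10 other genes, and in 7.02% of all windows. Capitals mark the matched letters, and stretches stop before the first exon base annotated in the window. The Gbp5 stretch lies inside the annotated gene, whose earliest transcript starts at 142493978. For Gbp2 and Irgm1 the match falls within the exon of a GENCODE transcript that starts farther upstream, so only 30 bases around it are given.
Gbp2 (chr3:142620594-142620623, plus strand): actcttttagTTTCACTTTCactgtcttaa
Gbp3 (chr3:142559934-142560025, plus strand): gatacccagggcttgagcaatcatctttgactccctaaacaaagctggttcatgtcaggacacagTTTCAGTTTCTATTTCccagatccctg
Gbp5 (chr3:142496684-142496899, plus strand): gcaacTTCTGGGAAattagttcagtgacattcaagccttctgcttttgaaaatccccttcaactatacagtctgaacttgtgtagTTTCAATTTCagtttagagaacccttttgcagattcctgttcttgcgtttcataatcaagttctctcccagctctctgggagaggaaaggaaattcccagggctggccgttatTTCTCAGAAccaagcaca
Gbp7 (chr3:142530226-142530335, plus strand): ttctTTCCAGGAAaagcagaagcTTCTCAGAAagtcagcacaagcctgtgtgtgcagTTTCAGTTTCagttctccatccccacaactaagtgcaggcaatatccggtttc
Irgm1 (chr11:48871428-48871457, minus strand): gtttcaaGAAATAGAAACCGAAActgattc
Igtp (chr11:58199446-58199555, plus strand): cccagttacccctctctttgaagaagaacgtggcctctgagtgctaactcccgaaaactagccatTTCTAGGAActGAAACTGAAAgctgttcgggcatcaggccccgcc

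In Gbp3 and Irgm1 the capitals cover a pair of overlapping matches of the response element core. In Gbp7 gamma-activated sites at -106 to -98 and at -87 to -79 lie upstream of the response element. In Igtp the gamma-activated site also lies upstream, and Gbp5 has such a site on either side of its response element. Both motifs together occurred in 0.332% of all windows. A match of letters is a description and not a bound site, and no binding was measured in these data.

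**Figure D1:**
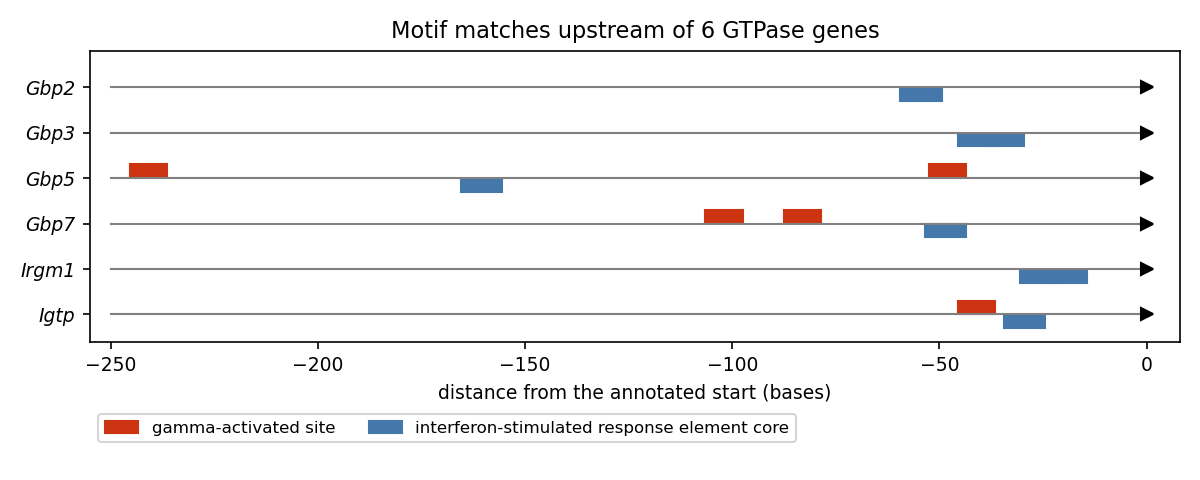
Matches of the response element core (blue) and TTCNNNGAA (red) on either strand in the 250 bases before the annotated start of 6 genes; the horizontal axis is the distance from the start in bases and the arrowhead is the start. The response element core lies between -59 and -15 in 5 of the 6 genes, and between -165 and -156 in Gbp5.

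After TBI each of the 10 genes had more counts in all 3 injured mice than in any sham mouse. Fold changes came from edgeR's quasi-likelihood test on the counts, and a call is a Benjamini-Hochberg adjusted p under 0.05 over 19536 genes. By that rule 10 of 10 were called higher, where 16.8% of all genes tested were called higher. The 10 did not overlap between groups, as did 24.6% of all genes upward. As the contrast was known when the list was drawn up, nothing is read from these counts. The median log2 fold change of the 10 genes was 2.66 (1.77 to 4.47), beside 0.0166 over all genes tested. Summed over the 10 genes, the level was 21.6 to 25.9 CPM (counts scaled to the size of the library) in sham mice and 123 to 224 CPM in TBI mice.

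The chromosome 3 genes come first. Gbp2, whose product carries a lipid anchor that ties it to membranes, had 72, 78 and 85 counts without injury against 622, 952 and 920 with it. Its lowest injured mouse was thus far above the highest sham mouse, at a log2 fold change of 3.40 (SE 0.218), or 10.5-fold. Gbp3, its neighbour, had 112, 72 and 142 counts against 1263, 1978 and 2379. That was 17.2-fold (log2 4.11, SE 0.323), and the spread among the injured mice (25.7 to 55.2 CPM) was wider than among the sham mice. Gbp5, linked in other work to assembly of the Nlrp3 inflammasome and also lipid-anchored, had 95, 66 and 91 counts against 339, 515 and 621. Its fold change was 5.84 (log2 2.55, SE 0.289). For Gbp7, the counts were 149, 161 and 132 against 622, 1032 and 853. The difference was close to that of Gbp5, at 5.60-fold (log2 2.49, SE 0.213). Of the stretches of 100 bases in the Gbp7 transcripts, 10.0% are also found in other genes. Most of these (9.59%) are in Gm43802, a pseudogene that overlaps Gbp7 on the same strand. Gbp3 shares 0.708% of its stretches with Gbp7.

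On chromosome 5 the differences ran from the smallest to the largest of the list. Gbp4 had 46, 30 and 51 counts without injury against 124, 181 and 135 with it, or 3.41-fold (log2 1.77, SE 0.284). Gbp9 had 98, 150 and 144 counts against 376, 535 and 517, or 3.62-fold (log2 1.86, SE 0.228). Both were separated between the groups, although by smaller steps than the chromosome 3 genes. Gbp6 had 14, 4 and 12 counts against 202, 205 and 269. From these few sham counts its fold change of 22.2 (log2 4.47, SE 0.405) is the highest and the least precise of the 10. Reads shared with other genes matter most here. Of the stretches of 100 bases in the Gbp6 transcripts, 82.9% are also found in Gm43302, an overlapping gene that the 2018 table does not list, so the split of reads between them is uncertain. Gbp4 and Gbp9 overlap each other and Gbp8 on the same strand, and share 2.62% and 2.01% of their stretches with other genes.

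The IRGs of the list followed the GBPs. Iigp1, an effector IRG also called Irga6 (chromosome 18, 60376027 to 60392634, plus strand), had 54, 36 and 59 counts without injury against 559, 818 and 763 with it. The groups lay 14.2-fold apart (log2 3.83, SE 0.250). Irgm1, the regulatory IRG tied to autophagy and mitochondria, had 369, 233 and 204 counts against 1404, 1847 and 2279. It had the most counts of the 10 in every sham mouse, and lay 6.81-fold apart (log2 2.77, SE 0.285). Igtp, also called Irgm3, had 157, 168 and 182 counts against 551, 986 and 918, or 4.81-fold (log2 2.27, SE 0.238). It overlaps Irgm2 on the same strand and shares 5.16% of its stretches with it. For Iigp1, Irgm1, Gbp2 and Gbp5 no stretch of 100 bases was found in another gene.

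The injured mice differed among themselves in the same sense for nearly the whole list. TBI library 1 had the lowest CPM of its group for 10 of 10 genes, and library 3 the highest for 8 of 10. The sham mice showed no such order, with the highest value in library 1 for 3 genes, in library 2 for 2 and in library 3 for 5. All 10 genes stayed called when any single mouse was left out.

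**Figure D2:**
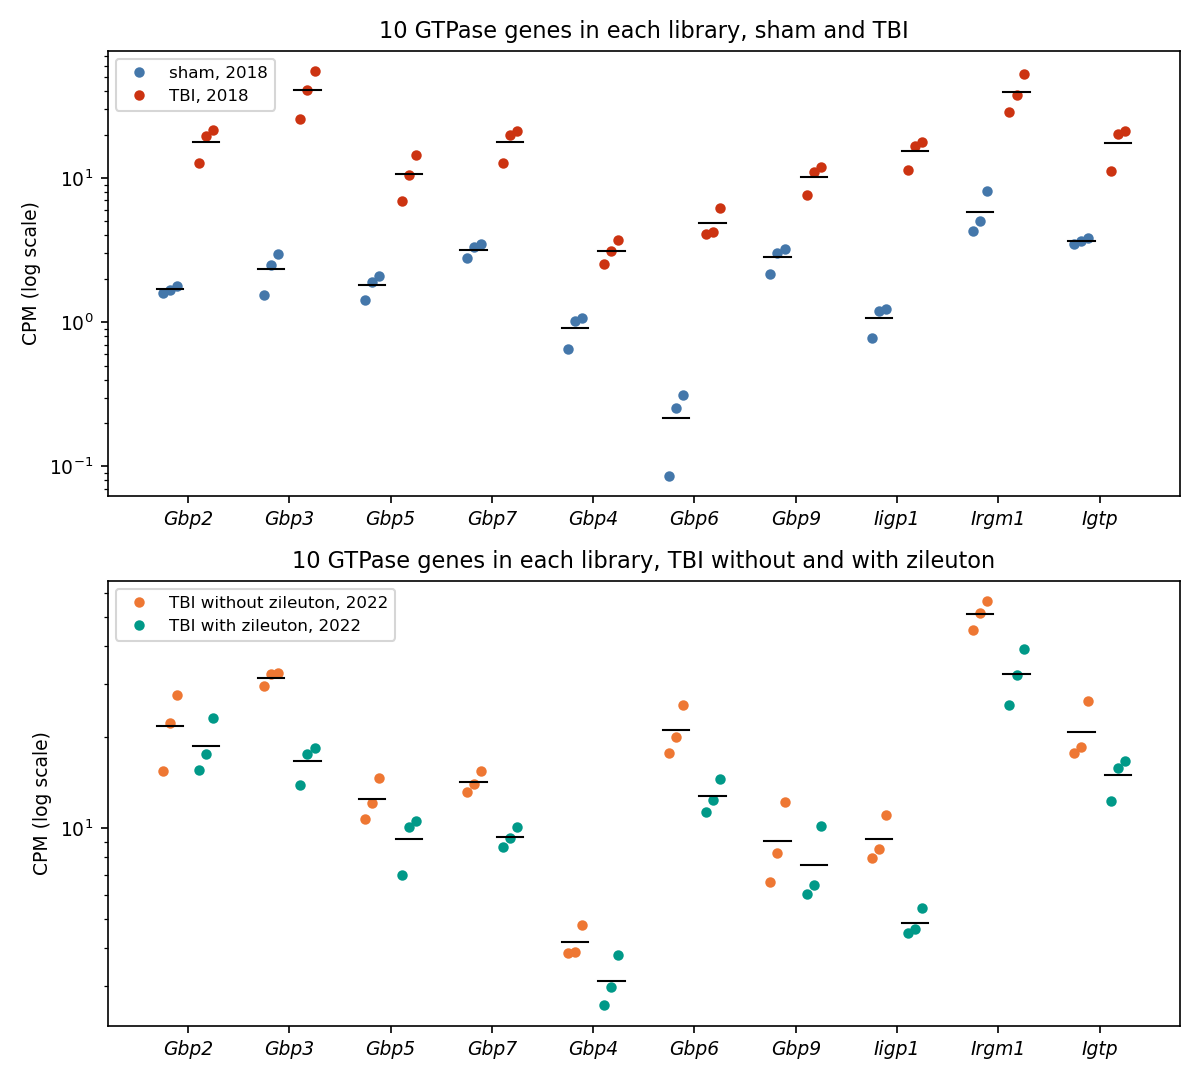
CPM (log scale) of the 10 genes in each library, with sham and TBI of 2018 above and TBI without and with zileuton of 2022 below; each point is a mouse, the points of a group are sorted by value, and the bar is the mean of 3. In the upper panel the TBI points lie above all sham points for every gene, and in the lower panel the zileuton points lie below all control points for 8 of 10 genes.

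The 10 genes were compared with each other only per length, as FPKM in the 2018 table (counts scaled to gene length and library size) and TPM in the 2022 table. In sham mice Igtp was highest, at 1.77 ± 0.0922 FPKM (SD, n = 3), and stood apart from Irgm1 at 0.985 ± 0.343. The libraries of Irgm1 overlapped those of Gbp3 (0.704 ± 0.219), and those of Gbp3 overlapped Gbp2 (0.660 ± 0.0403). Gbp6 was lowest at 0.0357 ± 0.0191 FPKM. In TBI mice Gbp3 led at 12.6 ± 4.52 FPKM, followed by Igtp (8.86 ± 2.82), Gbp2 (7.22 ± 1.87) and Irgm1 (6.96 ± 2.09), each overlapping the next. Irgm1 then stood apart from Gbp7 (3.24 ± 0.860), which overlapped Iigp1 (2.67 ± 0.608). The low end held Gbp6 at 0.828 ± 0.195 and Gbp4 at 0.425 ± 0.0876 FPKM, which did not overlap. By mean, Gbp3 thus moved from the third place to the top, and Iigp1 from the eighth to the sixth. The libraries of Iigp1 overlapped those of Gbp4 below it in sham mice and of Gbp9 below it in TBI mice. These places are therefore an order of means only.

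In the 2022 table the untreated TBI mice gave another order than the TBI mice of 2018 for all genes but Gbp4, which was lowest in both. Irgm1 was at the top with 46.1 ± 6.68 TPM, apart from Gbp3 at 22.5 ± 2.13, and Gbp6 held the fifth place with 11.7 ± 2.53 TPM instead of the ninth. The tables were made in different ways, and the 2022 table lists Gm43302, so these are orders within a table and not differences between batches.

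**Figure D3:**
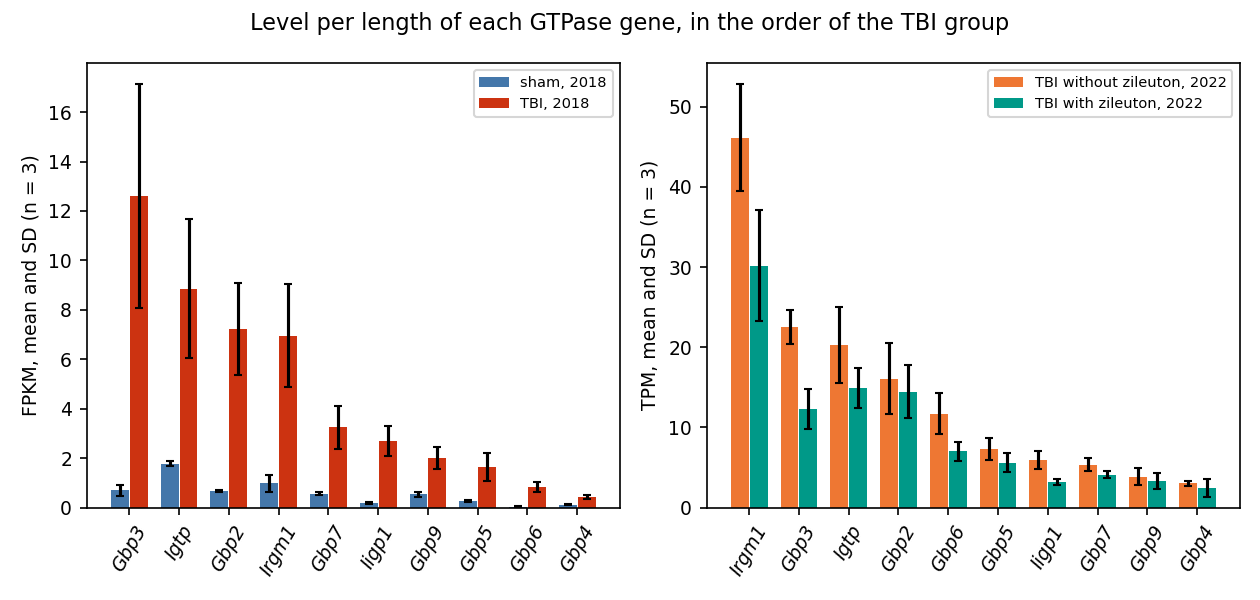
Mean level per length of the 10 genes with the SD (n = 3 mice), in FPKM for sham and TBI of 2018 on the left and in TPM for TBI without and with zileuton of 2022 on the right, each panel in the order of its own TBI group. Gbp3, Igtp, Gbp2 and Irgm1 form the upper 4 in both panels, and Gbp4 is the lowest in both TBI groups.

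Other GBP and IRG genes, 17 in a list set up alongside the 10, changed in the same direction for the most part. After TBI 15 were tested, 13 rose and 1 fell, beside 16.8% and 11.2% of all genes tested. The median log2 fold change of the 15 was 2.87. Among the regulatory IRGs, Irgm2 rose from 121, 118 and 149 counts to 755, 819 and 749 (log2 2.56, adjusted p 1.06e-05). Among effector IRGs, Irgb10, listed in the annotation as Gm12250, rose from 6, 4 and 2 counts to 56, 74 and 109 (log2 4.27, adjusted p 0.000468). Ifi47 (log2 3.76), Tgtp2 (3.66) and Tgtp1 (2.65) rose as well, Tgtp1 with a sham mouse at 26 counts where the others had 3 and 9. The less studied IRG genes Gm4951 (log2 4.39), F830016B08Rik (4.48), Gm5431 (3.83), 9930111J21Rik1 (2.87) and 9930111J21Rik2 (1.29) also rose. Of the GBPs, Gbp10 (log2 3.77), Gbp8 (2.61) and Gbp11 (1.65) rose from at most 19 counts in any sham mouse. Gm4841 had 0, 2 and 0 counts against 9, 35 and 45 and was left untested by the filter. Gbp2b was not found by its Ensembl identifier in the 2018 table, and had 0 counts in all 6 libraries of 2022.

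Irgq and Irgc, the members of the family that are not known as interferon-induced, stood apart. Irgq fell from 5355, 6061 and 6070 counts to 4856, 3869 and 4090 (log2 -0.47, adjusted p 0.0062). It is the most abundant gene of the family by counts in sham mice. Irgc, a gene of the testis, had 10, 13 and 30 counts against 2, 1 and 14, which overlapped (log2 -1.59, SE 0.877, adjusted p 0.216).

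**Figure D4:**
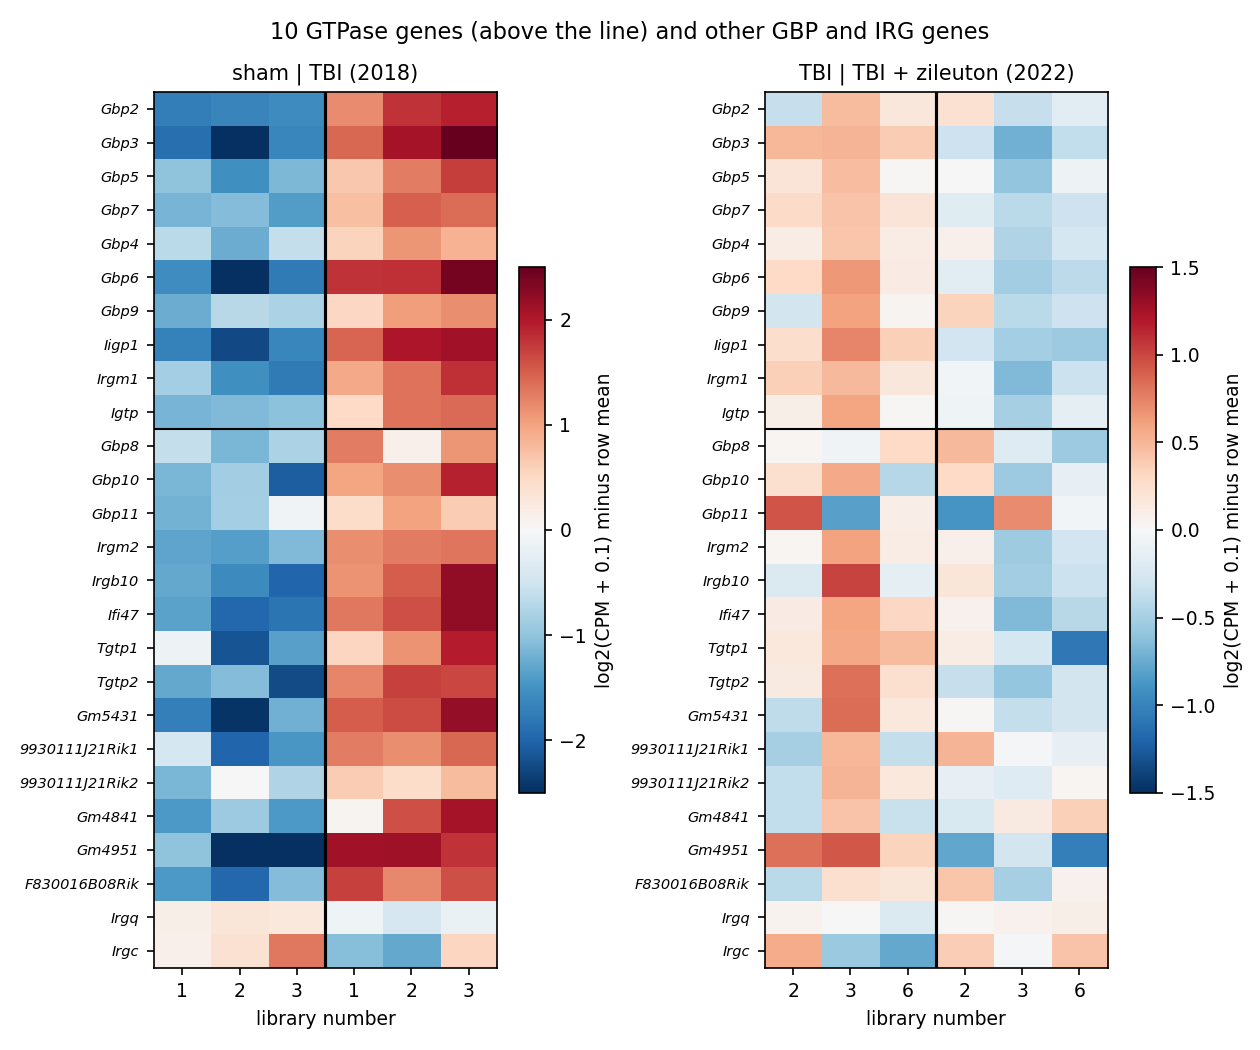
Log2(CPM + 0.1) of the 10 genes (above the line) and of 16 other GBP and IRG genes, each row minus its own mean, in sham and TBI of 2018 on the left and TBI without and with zileuton of 2022 on the right; columns are libraries and red is above the row mean, with the strongest values clipped to the ends of the scale. On the left all TBI columns are above all sham columns in every row but Irgq and Irgc; on the right library 3 of the untreated TBI mice is the highest of its group for all 10 genes.

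To see whether the surroundings of these genes moved with them, the 3 nearest tested genes outside both gene lists were examined on either side. This was done for the chromosome 3 row, the chromosome 5 genes, Irgm1 and Igtp, and not for Iigp1. Of 24 such neighbours 6 were called higher and 1 lower after TBI, beside 16.8% and 11.2% of all genes tested, with a median log2 fold change of 0.0944 (-0.386 to 2.91). Among the 3 on each side of the chromosome 3 row, Pdlim5 (log2 0.753) and Bmpr1b (0.354) were called, whereas Unc5c, Kyat3, Gtf2b and Pkn2 were not. Beside the chromosome 5 genes Abcg3 (log2 2.55) and Lrrc8d (0.297) were called higher and Lrrc8b (-0.386) lower. Psme2b beside Irgm1 was called higher as well (0.860). The highest of the 24 was Gm12185, a gene model beside Irgm1 (log2 2.91, adjusted p 0.0244). Whether it is itself an IRG gene was not checked, so it may not be a neighbour from outside the family.

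Of the interferon pathway, the ligands were scarcely seen. Ifng, the gene of interferon-γ, had 0 counts in all 6 libraries of 2018, which allows up to 3 counts or 0.0610 to 0.0696 CPM in a library for counting error alone. In 2022 it had 0, 0 and 2 counts without zileuton and 1, 0 and 0 with it. Ifnb1 had 2 counts in a single TBI mouse of 2018 and none elsewhere. Both were at or near the limit of this depth, which does not show that they were absent. Il15 was the only gene of this group that rose (log2 1.12, SE 0.285, adjusted p 0.0189), of 3 tested among 8.

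Receptors and signal carriers were well covered. Ifngr1, the ligand-binding chain for interferon-γ, rose from 674, 837 and 689 counts to 2033, 2080 and 2184 (log2 1.50, SE 0.120, adjusted p 4.75e-05). Its partner Ifngr2 overlapped between the groups (log2 0.23, SE 0.116, adjusted p 0.182). Ifnar2 rose (log2 1.06), which made 2 of 4 receptor genes. Irf1 rose from 203, 169 and 153 to 407, 399 and 458 counts (log2 1.25, SE 0.187). In all 6 of 9 signalling genes rose, among them Irf8 (log2 3.01) and Irf9 (2.06), while Jak1 (log2 -0.05) and Jak2 (0.04) were not called.

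Genes that damp the pathway rose too, in 4 of 6 cases. These were Usp18, which blunts type I receptor signalling (log2 4.55), the phosphatase Ptpn6 (3.01), Socs3 (1.96) and Socs1 (1.54). Of 10 other genes that interferon-γ induces, 8 rose. The chemokine genes Cxcl10 (log2 7.16) and Cxcl9 (4.96), the MHC class I regulator Nlrc5 (3.77) and the immunoproteasome gene Psmb8 (3.45) led them.

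Partners of the GTPases moved unevenly. All 6 inflammasome genes rose, with Casp4, the sensor of cytosolic lipopolysaccharide in mice (log2 4.30), ahead of the pore-former Gsdmd (2.35), Nlrp3 (2.25) and the adaptor Pycard (2.20). Of 11 genes for the conjugation of Atg8 proteins, which places IRGs and GBPs on vacuoles, Gabarap rose (log2 0.58) and Atg16l1 (-0.29), Gabarapl1 (-0.28) and Map1lc3a (-0.27) fell, all by less than 2-fold. Of 5 genes for prenylation, the step that adds the lipid anchor, Fnta rose (log2 0.34). Across these 8 lists 29 genes rose and 3 fell of 54 tested. The same fit called 28% of all genes.

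Marker genes of several cell types changed in the same comparison as the family. Markers of activated microglia and macrophages rose in 6 of 6 genes, and their summed level was 23.5 to 28.1 CPM in sham mice against 1006 to 2238 CPM in TBI mice. Homeostatic microglia markers rose in 6 of 6 (197 to 230 CPM against 515 to 660 CPM). Monocyte and neutrophil markers rose in 5 of 5 tested (0.735 to 1.64 CPM against 22.2 to 76.4 CPM), although the neutrophil marker Ly6g had 0, 2 and 6 counts in TBI mice and 0 in sham mice. T and NK cell markers summed to 7.78 to 21.3 CPM against 5.08 to 31.0 CPM, mostly Cd4, and 3 of 4 tested rose. Among these Gzmb had 0 counts in all sham libraries against 22, 20 and 16 after TBI, and Cd8a had 0 against 4, 25 and 10. Astrocyte markers rose in 5 of 5, while neuronal markers fell in 4 of 5 (6313 to 6858 CPM against 3995 to 4965 CPM). Endothelial markers rose in 4 of 5 (48.2 to 66.5 CPM against 70.2 to 117 CPM) and oligodendrocyte markers in 3 of 4 (4164 to 4660 CPM against 4894 to 8940 CPM). Choroid plexus and meningeal markers ran from 67.2 to 1070 CPM in sham mice against 1345 to 1388 CPM. In bulk tissue more cells of a type and more RNA per cell cannot be told apart, and the part of these cells in the rise of the GTPase genes was not tested.

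Zileuton was given to learn what blocking 5-lipoxygenase does to the injured tissue. With it the 10 genes were lower in the fit, and none passed the adjusted threshold. edgeR's quasi-likelihood test called 0 of 17363 genes in either direction, with a smallest adjusted p of 0.186 and 1186 genes (6.83%) at an unadjusted p under 0.05. Of the 10 genes 10 were lower, as were 49.3% of all genes tested. At an unadjusted p under 0.05 there were 7, where 3.9% of all genes were lower by that rule. Groups were separated for 8, where 7.04% of all genes were lower without overlap. In the deposited TPM, looked at after the CPM were seen, 4 of the 10 were separated (Gbp3, Gbp6, Iigp1 and Irgm1), where 3.77% of all genes were lower without overlap. With limma on log2(TPM + 1) there were 4 genes at an unadjusted p under 0.05 in place of 7. The median log2 fold change in the edgeR fit was -0.55 (-0.92 to -0.22), beside 0.0025 over all genes. DESeq2's Wald test, run on the same counts, called 28 genes (0.161% of those tested), and Gbp3, Gbp6, Gbp7 and Iigp1 were among them.

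Gbp3 and Iigp1 had the lowest fold changes of the list. Gbp3 was at 32.3, 32.6 and 29.6 CPM in libraries 2, 3 and 6 without zileuton and at 18.4, 13.8 and 17.6 CPM with it, 1.90-fold lower (log2 -0.92, 95% interval -1.20 to -0.64). Every treated mouse was below every untreated mouse by more than the spread within either group. Gbp7 beside it was at 13.99, 15.4 and 13.1 CPM against 10.1, 8.61 and 9.24 CPM, without overlap in CPM (log2 -0.61, interval -0.88 to -0.34). In TPM its lowest untreated mouse (4.4) was under its highest treated mouse (4.57). The log2 difference from limma was -0.31 on log2(TPM + 1) and -0.37 on log2(TPM + 0.1), so it depended in part on the value added. Gbp5 was at 12.1, 14.6 and 10.7 CPM against 10.5, 6.98 and 10.0 CPM. The highest treated mouse was just under the lowest untreated mouse there (log2 -0.45, interval -0.87 to -0.02), and in TPM these 2 overlapped at 5.96 untreated and 6.47 treated. Gbp2 overlapped, at 15.5, 27.5 and 22.3 CPM against 23.2, 15.5 and 17.5 CPM (log2 -0.22, interval -0.73 to 0.29). That interval spans falls and a small rise.

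On chromosome 5, Gbp6 was at 20.1, 25.6 and 17.7 CPM without zileuton and at 14.5, 11.3 and 12.4 CPM with it (log2 -0.73, interval -1.10 to -0.37). The groups were separated, with the reads shared with Gm43302 as above, which itself had 50.6, 139 and 117 counts against 119, 75.5 and 39.6. Gbp4 was at 3.87, 4.77 and 3.85 CPM against 3.78, 2.58 and 2.96 CPM, separated narrowly (log2 -0.43, interval -0.90 to 0.05). In TPM the same gene overlapped, at 2.77 to 3.37 against 1.57 to 3.77. Gbp9 was at 6.62, 12.2 and 8.27 CPM against 10.1, 6.03 and 6.45 CPM and overlapped widely (log2 -0.26, interval -0.89 to 0.36).

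Of the IRGs, Iigp1 was at 7.95, 11.1 and 8.52 CPM without zileuton and at 5.43, 4.62 and 4.50 CPM with it, 1.90-fold lower (log2 -0.92, interval -1.31 to -0.53). Irgm1 was at 51.7, 56.6 and 45.2 CPM against 39.3, 25.5 and 32.2 CPM (log2 -0.66, interval -1.02 to -0.30). Both were apart between the groups, Irgm1 narrowly in TPM, where its lowest untreated mouse had 38.68 and its highest treated mouse 37.33. Igtp was at 18.5, 26.4 and 17.7 CPM against 16.7, 12.3 and 15.8 CPM. Its highest treated library lay just under its lowest control in CPM (log2 -0.48, interval -0.90 to -0.07) and just over it in TPM (16.95 against 16.75).

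Single libraries had weight in these values. Untreated library 3 was the highest of its group for 10 of 10 genes, and treated library 2 was the highest of its group for 10 of 10. Without untreated library 3, 9 of 10 genes were lower, 5 at an unadjusted p under 0.05, the median log2 fold change was -0.43, Igtp was at -0.28, Gbp2 at -0.0096 and Gbp9 turned to 0.02. Without treated library 2, 8 genes had an unadjusted p under 0.05 and the median was -0.63. Over all 6 omissions of a single library, Gbp2 ran from -0.41 (without untreated library 2) to -0.0096, and Gbp9 from -0.54 (without treated library 2) to 0.02.

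**Figure D5:**
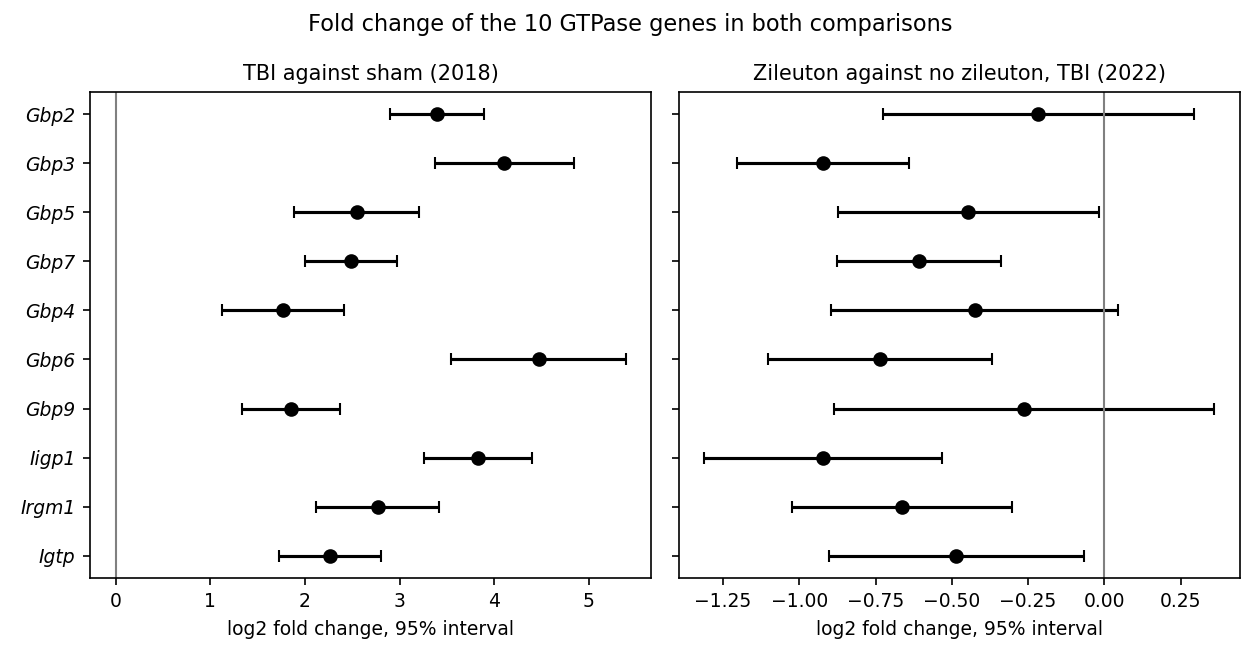
Log2 fold change of the 10 genes with its 95% interval from edgeR, TBI against sham of 2018 on the left and zileuton against no zileuton of 2022 on the right, on different scales. All 10 intervals lie above 0 on the left; on the right all 10 estimates lie below 0 and the intervals of Gbp2, Gbp4 and Gbp9 cross it.

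The other GBP and IRG genes lay in the same range with zileuton. Of 13 tested, 11 were lower and 0 were called by edgeR or by DESeq2, with a median log2 fold change of -0.50. At an unadjusted p under 0.05 there were 5, namely Gm4951 (log2 -1.48), Tgtp2 (-0.85), Tgtp1 (-0.76), Ifi47 (-0.68) and Irgm2 (-0.51), each with an adjusted p of 0.713. Irgq (0.11) and 9930111J21Rik1 (0.20) were the 2 that were higher. Of 53 interferon and partner genes tested, 0 were called by either tool, and at an unadjusted p under 0.05 there were 5 lower and 1 higher, beside 3.9% and 2.93% of all genes. Of the 10 other genes that interferon-γ induces, 8 were lower in the edgeR fit, with a median log2 fold change of -0.30. At an unadjusted p under 0.05 there were 3 of them, all lower. Among all genes tested 49.3% were lower, and 3.9% at that threshold. Irf1 was at -0.04 on the log2 scale (SE 0.189, adjusted p 0.963). Ifngr1 (-0.19) and Ifngr2 (-0.07) also overlapped between the groups.

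Markers of activated microglia and macrophages were lower in 6 of 6 genes with zileuton, 0 of them called, and summed to 1177 to 2497 CPM without and 770 to 1380 CPM with it. Homeostatic microglia markers summed to 588 to 862 CPM and 614 to 809 CPM. Monocyte and neutrophil markers summed to 8.71 to 13.1 CPM and 3.80 to 11.5 CPM, with Ly6g at 0 in all 6 libraries. Endothelial markers summed to 145 to 172 CPM and 159 to 196 CPM, and of these Flt1 (log2 0.31) and Tek (0.28) were higher without overlap, with an adjusted p of 0.713 each. Choroid plexus and meningeal markers ran from 79.9 to 1101 CPM without and from 45.2 to 1484 CPM with zileuton, so libraries of the same group differed widely. Oligodendrocyte markers summed to 3373 to 7597 CPM and 6801 to 7081 CPM, and astrocyte markers to 3514 to 4732 CPM and 3636 to 5153 CPM. Neuronal markers summed to 3949 to 4589 CPM and 4027 to 4774 CPM, and T and NK cell markers to 18.9 to 30.7 CPM and 23.6 to 42.9 CPM. The part of these cells in the lower GTPase values was not tested. Log2 fold changes were also higher in longer genes across this comparison (Spearman's rho 0.378 over 17363 genes, which are not independent replicates). With that trend removed, 7 of the 10 genes still had an unadjusted p under 0.05 in the lower direction, where 2.82% of all genes did.

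Genes with the closest pattern over the libraries were sought by correlation. For each of 16493 other genes the log2 CPM was correlated with the mean profile of the 10 over the 6 libraries of each batch, and genes were ordered by the smaller of both coefficients. This is a description over libraries of which 3 are of each group, so that the group difference sets much of it in 2018. The 10 closest were Oas1b, Rtp4, Ifit3b, Ifi44, Oasl2, Ifit3, Trim30d, Oas2, Slfn8 and Ifit1, with smaller coefficients from 0.988 down to 0.969. Oas1b had a log2 fold change of 3.62 after TBI and -0.89 with zileuton, and Rtp4 had 3.84 and -1.12. Within the list, Gbp4 (0.983) and Gbp6 (0.978) followed the mean profile most closely in 2022, where Gbp9 (0.770) and Gbp2 (0.714) followed it least. Each of these genes is itself part of that mean, so their coefficients are not comparable with those of the other genes.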

How the data were processed

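RNA-seq of 12 brain libraries was taken as deposited. For the 2018 batch the authors deposited whole-number counts per gene and FPKM made from them. The 2022 table holds estimated counts with decimals and TPM, both deposited by the authors. The submitters' processing notes name HISAT2, featureCounts, Subread, DESeq2 and GRCm39. Whether counting used the strand is not given in the sources used here. The 2018 libraries held 42929862 to 48684674 counts and the 2022 libraries 27845562 to 35453257. Of the counts from 1 to 20 in 2018, 62.3% to 64.4% were even, so a count need not be a separate molecule, and limits cover counting error only.

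The counts were fitted in R 4.3.3 with edgeR 4.0.16 (TMM, filterByExpr, glmQLFit, glmQLFTest), in a fit of its own for each batch, with Benjamini-Hochberg adjustment over all genes tested and a threshold of 0.05. The plan assumed raw counts for both, and the estimated counts were rounded to whole numbers. The SE is the log2 fold change over the square root of F. CPM used TMM factors. DESeq2 1.42.0 and limma 3.58.1 served alternatives. The 10 genes, the other lists and the tests were chosen with earlier results of these data known, and the 10 genes, every family gene with a count, the 4 largest called genes of a list, and Ifng, Ifngr1, Ifngr2 and Irf1 were named by rule. A further gene that the rule names is not reported here. Neighbouring genes and genes of like pattern were named after their values were seen where the rule did not name them. The labels give no more on how the libraries of a group were made separate, so p-values measure the spread between these libraries. Identifiers were turned into symbols with a names table (34808 and 52081 matched), promoters from RefSeq (GRCm38.p6) and overlaps from GENCODE M21. Tests were tried on simulated counts with planted changes.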

Additional observations from a re-analysis of the deposited data

How the results depend on the processing

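In the sham and TBI comparison the GTPase genes tested kept their direction in each alternative run, where Gbp4 and Gbp6 were not tested with the FPKM minimum and Gbp6 not with at least 10 counts in every library, and 9 or 10 were called in all count-based fits. The equal-variance two-sample test on FPKM, with a minimum mean of 0.5 FPKM that leaves 8 of the 10 genes, called 5 of them, 2625 genes in all, 4 of the other GBP and IRG genes and 21 of the interferon and partner genes. Of the other GBP and IRG genes, 4 were tested and called with at least 10 counts in every library, and 6 with limma on log2(FPKM + 1) and 6 on log2(FPKM + 0.1), since fewer passed these filters. With single mice left out, 10 of 10 genes, 3848 to 4956 genes in all, 12 to 13 of the other family and 30 to 33 of the interferon and partner genes were called.

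With zileuton, DESeq2's Wald test called 4 of the 10 genes and 28 genes in all, and edgeR with no filter beyond 1 count called 1 (Gbp3) and 4. limma on log2(TPM + 1) called 4 genes and on log2(TPM + 0.1) 3, with none of the 10 among them, and in each of the 4 TPM-based alternatives 4 of the 10 had an unadjusted p under 0.05. The cause was not tested. No library left out gave a call (0 to 0), and between 5 and 8 of the 10 genes then had an unadjusted p under 0.05. Gbp9 turned to 0.018 without untreated library 3 and went to -0.535 without treated library 2. With a replicate block, 10 of 10 genes and 4337 genes in all were called after TBI, and 0 and 0 with zileuton, where 5 of the 10 had an unadjusted p under 0.05. Deviations of same-numbered libraries correlated at -0.0944 to -0.0228 in 2018 and at -0.282 to 0.0628 in 2022, which gave no sign that the numbers pair the mice. So few libraries cannot exclude a pairing. With 3 mice a group, small differences may be missed, and low counts limit Gbp6 in sham mice most.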
